A study of Mus musculus with 8 samples.

Results

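Irf8 encodes a transcription factor of the interferon regulatory factor (IRF) family, and 8 peaks of DC-SCRIPT binding lay within 100 kb of its lower gene end in conventional dendritic cells of type 1 (cDC1) from mouse spleen. In type 2 cells (cDC2) no peak lay there. The peaks were chosen by position alone, as those centred within 100 kb of position 120736358 on chromosome 8 (build GRCm38), out of 31473 peaks in cDC1 and 2776 in cDC2. The protein DC-SCRIPT, a zinc finger factor and the product of Zfp366, was mapped with CUT&Tag, a method in which an antibody directs a transposase to the DNA around the bound protein. The cells were sorted from spleens of female C57BL/6 mice, either zfp366+/+ (wild type) or zfp366-/- (knockout). Ages and the part of Zfp366 that was deleted are not stated in the labels. Each of the 8 libraries was a pool of mice. For cDC1 there were 3 from wild type and 2 from knockout, and for cDC2 there was 1 from wild type and 2 from knockout.

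IRF8 is needed for the specification and maintenance of cDC1 and for the plasmacytoid and monocyte lineages, and its gene is controlled by a series of distant enhancers named by their offset from the start. The +32 kb enhancer is bound by BATF3 together with IRF8 and is known for sustaining Irf8 in cDC1. The +41 kb enhancer is bound by E proteins and is known from plasmacytoid cells and cDC1 progenitors, and the +56 kb enhancer is active in monocytes and other myeloid cells. An element at -50 kb is known as a binding region of PU.1. These offsets are nominal and from general knowledge.

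Of these elements, the promoter is where sequence could be set beside a peak. The first annotated start of Irf8 is its lower end, on the plus strand, and the promoter peak at chr8:120736070-120736260 ended 98 bp before it. The RefSeq sequence (GRCm38.p6, plus strand, 5′ to 3′) is shown in 2 pieces. The first, chr8:120736108-120736260, holds the bases under the peak that fell in the promoter window described below. The second, chr8:120736261-120736357, runs from the peak to the base before the start. Bases of the peak before 120736108 lay outside that window and were neither shown nor searched. Capitals mark matches to 2 of the 10 motifs searched.

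Irf8 promoter inside the peak: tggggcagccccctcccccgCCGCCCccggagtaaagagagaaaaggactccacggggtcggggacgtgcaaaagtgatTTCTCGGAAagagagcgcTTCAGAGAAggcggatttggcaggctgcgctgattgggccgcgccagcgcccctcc
Irf8 promoter from the peak to the start: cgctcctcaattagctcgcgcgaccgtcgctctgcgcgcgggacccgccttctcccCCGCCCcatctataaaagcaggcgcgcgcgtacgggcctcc

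The promoter window of 300 bp, made of the 250 bp before the start and the first 50 bp from it, held 2 matches to TTCNNNGAA, the palindromic letters of a STAT site. Both lay inside the peak, at 120736187 to 120736195 and at 120736205 to 120736213. STAT factors carry cytokine and interferon signals to the nucleus. These letters occurred in 7.69% of the 21237 promoter windows of protein-coding genes, and in 6.55% of the 4642 windows that overlapped a cDC1 peak. The GC box GGGCGG, printed as its reverse complement, matched once inside the peak at 120736128 to 120736133, once between the peak and the start, and once after the start. It occurred in 46.2% of all windows and 68.7% of those with a cDC1 peak. No match overlapped another.

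The other 8 motifs, searched on both strands, had no match in the window. They were GAAANNGAA (IRF, in 8.13% of all windows), GGAANNGAA (ETS with IRF, 7.76%), AGGAAGT (PU.1, 9.07%), TGANTCA (AP-1, 6.99%), CAGGTG (E-box, 19.7%), TGTGGTT (RUNX, 4.71%), TTGCNCAA (C/EBP, 2.84%) and GGGNNTTCC (NF-kB, 6.30%). The Irf8 window was 70.0% G and C, against a median of 56.3% over all windows and 61.7% over windows with a cDC1 peak. A second annotated start of Irf8, 2.28 kb further on at 120738639, held 1 match to CAGGTG and to none of the other motifs, and no peak overlapped its window. The promoter peak ended 2.38 kb before it.

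Signal is given as normalised tags, the tags of a peak scaled to a total of 10000000. The wild-type and knockout tags of each subset stand in the lists as 1 pooled set each. No value per library and no spread between mouse pools can therefore be given. Wild-type and knockout sets held 35.5 M and 12.1 M tags in cDC1 and 4.77 M and 6.83 M in cDC2. The wild-type totals are the authors' own, and the knockout totals were estimated here from the scaling of the listed tags. Intervals at 95% (exact Poisson for levels, exact Clopper-Pearson for folds) cover counting error only, and tags are not independent molecules. The fold of a peak is the authors' own, from the authors' deposited table. Every listed peak passed the authors' limits, a fold of at least 4 over knockout and over the surrounding 10 kb and a Poisson limit of 0.0001 for each, which compares pooled tags and not animals. Such peaks were 18.0% of the putative peaks in cDC1 and 14.2% in cDC2. A place outside the lists may therefore still hold signal in both genotypes. The folds and their intervals use the same tags as these limits and do not allow for that selection. A fold of at least 4 was required of every listed peak, so a fold above 1 is not a separate result.

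The highest signal lay beyond the gene, where 2 peaks stood 5.17 kb apart. The first, at chr8:120763436-120763626, was centred 27.2 kb from the start and 6.84 kb past the upper gene end, between genes. It held 51.3 normalised tags in wild type (95% interval 44.4 to 59.6) and 3.71 in knockout (0.898 to 9.62), from 183.3 and 4.5 tags. Its fold was 13.9 (95% interval 5.27 to 58.1).

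The second peak, at chr8:120768609-120768799, was centred 32.3 kb from the start, 0.346 kb from the nominal place of the +32 kb enhancer. Wild-type cells gave 50.7 normalised tags (95% interval 43.6 to 58.7) and knockout cells 3.71 (0.898 to 9.62), a fold of 13.7 (95% interval 5.18 to 57.1). This peak lay inside Gm39266, a long noncoding RNA gene on the minus strand from 120767475 to 120770155, 1.45 kb from the start of that gene. The levels of these peaks did not differ beyond counting error. Both exceeded the next highest Irf8 peak, and their intervals did not overlap its own. Together they carried 50% of the 203.8 normalised tags summed over the 8 peaks. By wild-type level they stood above 94.8% and 94.6% of the cDC1 list, and by fold above 66% and 64.8%.

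**Figure D1:**
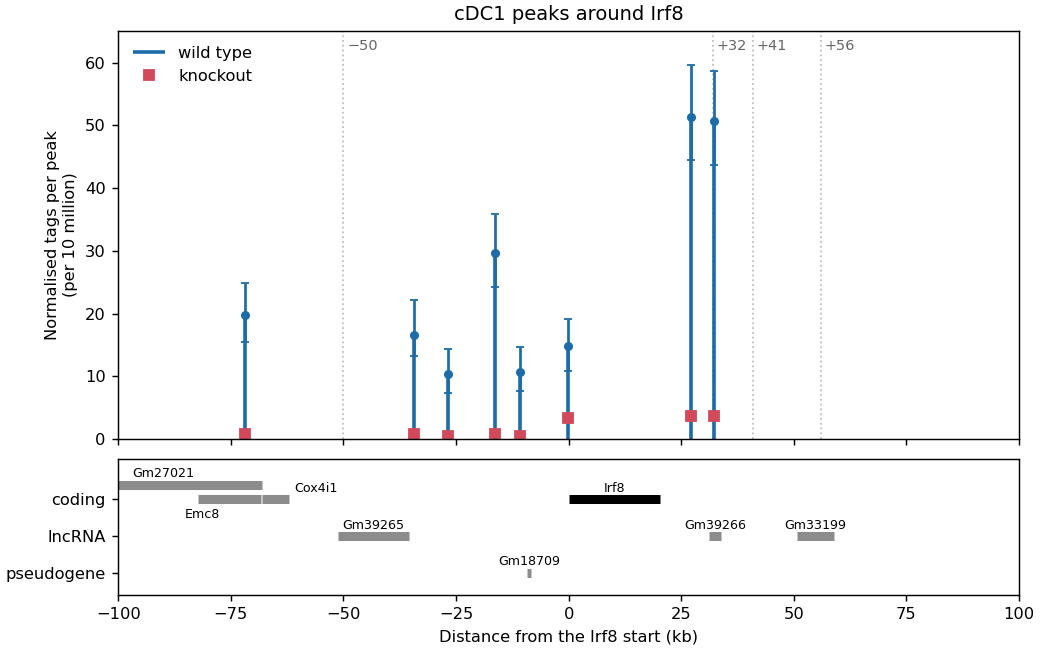
Upper panel: normalised tags (per 10000000) of each cDC1 peak against its distance from the Irf8 start in kb, with wild type as blue points on stems with 95% Poisson intervals and knockout as red squares; dotted lines mark the nominal enhancer offsets. Lower panel: the annotated genes by class. The 2 peaks at 27.2 and 32.3 kb are the highest, and no peak stands at -50, +41 or +56 kb.

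No listed peak lay at the other named enhancers. The nearest peak to the +41 kb place was the one at 32.3 kb, 8.65 kb away, and the same peak was nearest to the +56 kb place, 23.7 kb away. The +56 kb place falls inside the noncoding gene Gm33199, which runs from 50.6 to 59.0 kb. Between the peak at 32.3 kb and the upper edge of the window, 67.6 kb held no peak. The nearest peak to the -50 kb place, which falls inside the noncoding gene Gm39265, was the one at -34.3 kb, 15.7 kb away. Of the 5 elements compared (promoter, -50, +32, +41 and +56 kb), 2 thus had a cDC1 peak within 2 kb, the promoter and +32 kb. For the promoter, 24.4% of protein-coding genes with a promoter window had a cDC1 peak on it. How often other places in the window of 100 kb lie within 2 kb of a peak was not counted, so the number shows no preference for enhancers.

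The promoter peak had the lowest listed fold of the 8. It was centred 193 bp before the start and held 14.8 normalised tags in wild type (95% interval 10.9 to 19.2) and 3.30 in knockout (0.898 to 8.44). The fold was 4.49 (95% interval 1.64 to 16.9), close to the required 4, and 4.35% of the list had a lower fold. Its fold over the surrounding 10 kb, 4.51, was also near the limit. A cDC1 peak overlapped a promoter window at 4265 of 17491 protein-coding genes with a window, or 24.4%. The 3977 cDC1 peaks on promoter windows had a median of 21.1 normalised tags and a median fold of 7.66, against 14.8 tags and 10.7 for the other peaks.

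Within the gene, from 120736358 to 120756694, no peak was centred. The peak-free stretch from the promoter peak to the first peak beyond the gene measured 27.2 kb.

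Below the start, 5 peaks were spread from -10.9 to -71.8 kb. The highest, at -16.3 kb (chr8:120719926-120720116), held 29.6 normalised tags in wild type (95% interval 24.2 to 35.8) and 0.824 in knockout, which is 1 tag. Its fold of 35.9 (95% interval 6.31 to 1432) stood above 94.3% of the list and was the highest of the Irf8 peaks with more than the lowest knockout value. It lay between genes.

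The peak at -34.3 kb (chr8:120701963-120702153) held 16.6 normalised tags (95% interval 13.2 to 22.1) against 1 knockout tag, or 0.824 normalised. It lay 1.18 kb before the start of Gm39265, a noncoding gene on the minus strand. Its fold was 20.9 (95% interval 3.61 to 837.5).

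The farthest peak, at -71.8 kb (chr8:120664497-120664687), lay inside Emc8, which encodes a subunit of the membrane protein insertase of the endoplasmic reticulum, and inside the overlapping gene Gm27021. It was 3.63 kb below Cox4i1, a subunit gene of cytochrome c oxidase, so it has nearer genes than Irf8. Wild-type signal was 19.7 normalised tags (95% interval 15.4 to 24.9) against 1 knockout tag, and the fold was 23.9 (95% interval 4.16 to 959.1).

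The remaining peaks, at -26.9 kb (chr8:120709366-120709556) and -10.9 kb (chr8:120725316-120725506), were the lowest. They held 10.4 and 10.7 normalised tags in wild type, with 95% intervals of 7.35 to 14.4 and 7.58 to 14.7. Knockout tags were at the lowest listed value, 0.5, which also stands for no tag, at both. This value occurred at 20.1% of all cDC1 peaks. Against a floor of 3 knockout tags over the knockout set, wild-type signal was at least 4.20-fold and at least 4.33-fold higher, before counting error of the wild-type tags. Exact lower 95% limits that include this error were 2.13 and 2.20 with 1 knockout tag, and 3.26 and 3.36 with none. The peak at -10.9 kb stood 4.15-fold over its surroundings, just inside the required 4. The nearest cDC1 peaks outside the window lay at -172.4 kb and at 371.9 kb, with 16.2 and 21.6 normalised tags.

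Ordered by wild-type level, the peaks ran 27.2, 32.3, -16.3, -71.8, -34.3, -0.193, -10.9 and -26.9 kb. The ratio of neighbours in this order had an exact 95% interval above 1 at 2 steps. The peak at 32.3 kb held 1.71 times the tags of that at -16.3 kb (1.34 to 2.20), which in turn held 1.5 times those of the peak at -71.8 kb (1.10 to 2.06). The other 5 ratios ran from 1.02 to 1.38 and their intervals held 1, which does not show the levels to be equal. The order by fold differed from that by level. Of the 5 peaks below the start, 3 had 1 knockout tag and 2 the lowest listed value, whereas the promoter peak and the 2 peaks beyond the gene had 4.0 to 4.5.

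This division of the peaks was made after their values were seen, and the difference between the sides was not tested. The median knockout signal of the whole cDC1 list was 1.65 normalised tags. The knockout levels of the promoter peak and of the 2 peaks beyond the gene were higher than in 78.4%, 83.2% and 83.2% of the list.

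**Figure D2:**
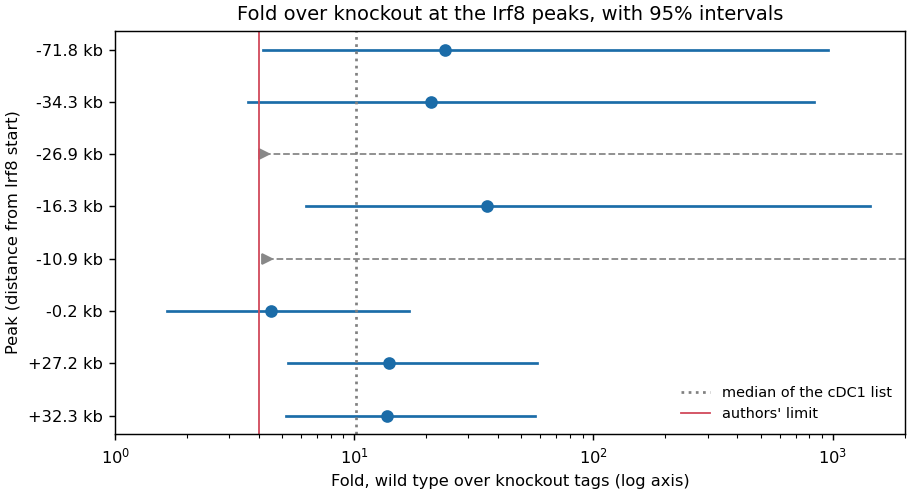
Fold of wild-type over knockout tags (log axis) for each Irf8 peak, by distance from the start, with blue bars as exact 95% intervals. Grey arrows mark lower bounds against 3 knockout tags where knockout was at the lowest value; the red line is the authors' limit of 4 and the dotted line the median of the cDC1 list, 10.2. Among the blue points, the promoter peak, at 4.49, is nearest to the limit.

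Over the 8 peaks the median level was 18.1 normalised tags in wild type and 0.824 in knockout, beside 15.5 and 1.65 over the list. The median of the listed folds was 22.4, beside 10.2 over the list. With peaks at the lowest knockout value set to their lower bound against 3 knockout tags, these medians were 13.8 and 7.52. The bound was set at those peaks only. Irf8 peaks with 1 knockout tag, also below 3, kept their listed folds of 20.9, 23.9 and 35.9. A floor on every peak was not applied, so these medians do not show how far the difference depends on low knockout tags. The median fold over the surrounding 10 kb was 6.08, beside 6.65, and the median share of tags placed around the centre, which the authors call the focus ratio, was 0.646, beside 0.666. The listed folds of the Irf8 peaks were thus higher in the median than those of the list, by an amount that rests on 0.5 to 4.5 knockout tags per peak. A pair as high and as close was found elsewhere too. Of the 1715 cDC1 peaks with at least 50.7 normalised tags, 264 (15.4%) had another such peak within 5.17 kb.

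**Figure D3:**
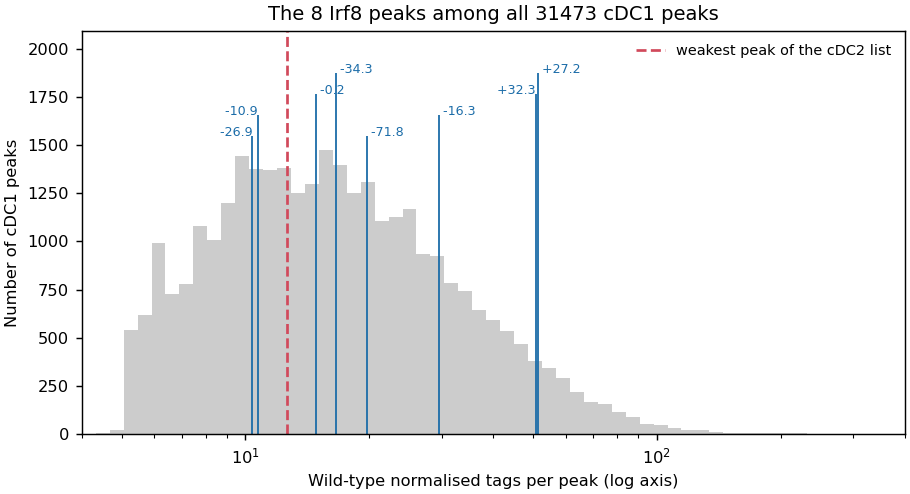
Histogram of wild-type normalised tags (log axis) over all 31473 cDC1 peaks, with the 8 Irf8 peaks as blue lines labelled by their distance from the start in kb and the weakest cDC2 peak, 12.6 tags, as a dashed red line. The peaks at 27.2 and 32.3 kb lie in the upper tail, and those at -26.9 and -10.9 kb lie below the dashed line.

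In cDC2, the nearest listed peak lay at -210.5 kb, chr8:120525812-120526002, with 18.8 normalised tags and 2 knockout tags. None of the 8 cDC1 peaks was overlapped by a cDC2 peak. The same held for most of the list, of which 5.61% overlapped a cDC2 peak, and for most of the high peaks: the share was 22.4% among the 1715 with at least 50.7 normalised tags. At the depth of the cDC2 wild-type set, the normalised levels of cDC1 would give 24.5 tags at 27.2 kb, 24.2 at 32.3 kb, 14.1 at -16.3 kb and 9.41 at -71.8 kb. The header of the cDC2 list gives a threshold of 7 for a putative peak, which is also the lowest score listed, and the weakest listed peak held 6.0 tags. Of the 8 values, 6 were at least 7, among them the promoter peak with 7.07, and those at -26.9 and -10.9 kb were 4.97 and 5.11. These are expected tags around which counts vary, so the values from 4.97 to 9.41 could fall on either side of the threshold. A putative cDC2 peak could also have been removed by its knockout or local signal. The cDC2 list rests on 1 wild-type library. A difference between the subsets at Irf8 was not tested.

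Compared with other genes, Irf8 had more cDC1 peaks than most. At least 8 peaks lay within 100 kb of the lower end at 23.4% of the 21883 protein-coding genes, where the median was 4. A sum of at least 203.8 normalised tags was found at 16.5% of genes, and a highest peak of at least 51.3 at 19.8%. Within 50 kb, Irf8 had 7 peaks, a number that 7.10% of genes reached, whereas 43.7% reached its 10 peaks within 200 kb. At least 1 cDC1 peak within 100 kb was found at 77.3% of genes, and a cDC2 peak at 27.6%. Of the 5110 genes with at least 8 cDC1 peaks, 41.4% had no cDC2 peak in the window, as Irf8. Neighbouring genes share peaks in these counts. The lower end is the start of a gene on the plus strand but the opposite end on the minus strand. Long genes are covered only in part.

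Most of the 8 IRF genes compared had a similar number of peaks. All 8 had a cDC1 peak in the window, with 4 at Irf7, 8 at Irf8 and Irf2, and 9 at the other 5, and 4 of the 8 had a cDC2 peak, beside 77.3% and 27.6% of all protein-coding genes. Irf9, a part of the interferon-activated complex ISGF3, had the largest sum, 398.0 normalised tags, and Irf7, which drives type I interferon genes, the smallest, 112.0. Irf4, the relative of Irf8 that acts in cDC2, had a sum of 156.2 normalised tags in cDC1 and 2 cDC2 peaks. All 8 had a promoter window, and Irf1, Irf2, Irf4 and Irf8 had a cDC1 peak on it, 4 of 8 beside 24.4% of all genes with a window. The promoter signals were 36.5 normalised tags at Irf2, 22.0 at Irf4, 16.9 at Irf1 and 14.8 at Irf8. In cDC2, the promoters of Irf2 and Irf4 held a peak, of 30.4 and 17.8 normalised tags, beside 1.46% of all genes with a window.

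Among 22 other regulators of dendritic cells, all had a cDC1 peak in the window and 17 had a cDC2 peak, again beside 77.3% and 27.6% of all protein-coding genes. The median was 9 peaks and 225.2 normalised tags, beside 69.0 tags over all protein-coding genes. The largest sum was that of Batf3, the partner of IRF8 at the +32 kb enhancer, with 14 peaks and 612.9 normalised tags. The smallest was that of Tcf4, an E protein gene of plasmacytoid cells, with 3 peaks and 44.2 tags. Tcf4 runs from 69343429 to 69687967, so the window covered only part of it. Of these and the IRF genes, 30 in all, Irf8 ranked 16 by the sum. Of these, the 3 genes with sums closest to that of Irf8 were Id2 with 212.0 tags from 9 peaks, Cebpb with 189.9 from 6 and Irf2 with 188.1 from 8. Id2 encodes an inhibitor of E proteins, and Cebpb a transcription factor of myeloid cells. No cDC2 peak lay near Cebpb, 1 near Irf2 and 2 near Id2. Irf8 was 1 of 9 genes among the 30 that had no cDC2 peak in the window, as had 72.4% of all protein-coding genes. The 22 regulators include Zfp366, the gene knocked out, with 11 cDC1 peaks, 273.4 normalised tags and 1 cDC2 peak. A deleted stretch of Zfp366 would give no knockout tags whatever the binding, and its place is not stated.

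**Figure D4:**
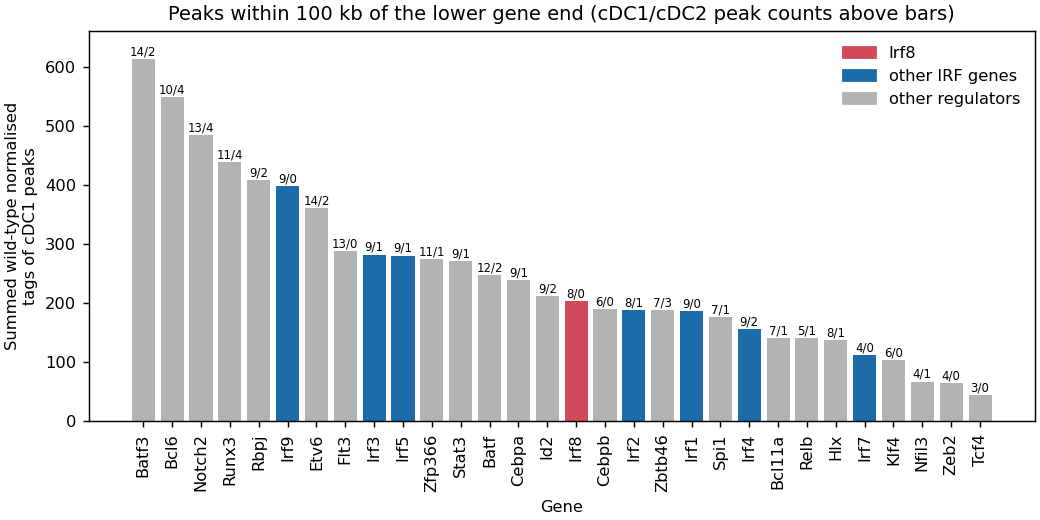
Summed wild-type normalised tags of the cDC1 peaks within 100 kb of the lower end of each gene, for 8 IRF genes and 22 regulators of dendritic cells, in falling order, with the number of cDC1 and cDC2 peaks above each bar. Irf8, in red, stands at position 16 of 30 with 203.8 tags, and Batf3 is highest with 612.9.

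The lists hold binding and not expression, so the sorted cells could not be checked against the expression of their markers. In the same window, a cDC1 peak lay near 6 of 6 genes that mark cDC1 and 6 of 6 that mark cDC2, but also near 6 of 6 B cell, 5 of 5 T cell and 6 of 6 plasmacytoid marker genes, so presence of a peak did not separate them. A cDC2 peak lay near 3 of 6, 6 of 6, 3 of 6, 4 of 5 and 3 of 6 of the same groups. Over all protein-coding genes the shares were 77.3% in cDC1 and 27.6% in cDC2. The part of other cells in the signal at Irf8 was not tested.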

How the data were processed

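Peaks were called with HOMER findPeaks in factor mode, on 1 wild-type against 1 knockout tag directory per subset, per the file headers. At most 1 tag per position was counted. The libraries behind each directory, the aligner and any earlier removal of duplicates were not given in the sources used here. Builds GRCm38 and mm10, names of one assembly, come from the submitters' processing notes.

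The deposited signal is wild-type tags scaled by the authors to 10000000. The deposited wild-type tags stand at knockout depth in cDC1, and the knockout tags at wild-type depth in cDC2. Both were scaled back here with the estimated knockout totals. The wild-type columns differed by up to 3.28% at Irf8. The deposited score, focus ratio (a fraction), fold (a ratio) and Poisson p-value are the authors'.

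Computed here, with Python 3.11.15, SciPy 1.17.1 and pandas 2.3.3: distances, window counts over 21883 protein-coding genes (RefSeq, GRCm38.p6), overlaps by at least 1 bp, motif matches and exact intervals. Knockout tags were rounded up for the lower limit of a fold and down for the upper. The window counts were checked on simulated peaks, and the intervals on simulated Poisson tags. Those tags were not selected by fold and had no spread between libraries. How well the intervals hold for these data was therefore not tested. No genome sequence was used, so only promoters were searched. Promoter windows were matched by symbol, for 8 of 8 IRF and 18 of 22 regulator genes. Not every gene of the lists is reported here. For the marker lists, Trac was not matched.

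Peaks, gene lists, elements and motifs were chosen with earlier results of these data known. Named genes were Irf8, its neighbours, the 3 regulators closest in summed signal, and those with the highest and lowest values. Zfp366 was named as the gene knocked out. Tests per library planned for the case of values per library were not run, because the tables hold pooled values.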

Additional observations from a re-analysis of the deposited data

How the results depend on the processing

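Of 29 alternatives, 26 left the value within 1.5 times the reported one, or for folds within the interval or above 1. Many of these 26 could not have come out otherwise, so their number does not measure robustness. Stricter settings on a count of 0 cDC2 peaks had to give 0, and no cDC2 peak lay near enough to match. The 8 fold alternatives reuse the same tags. With the upper 50% of scores, 5 cDC1 peaks in place of 8 remained at Irf8. The share of genes with as many cDC1 peaks as Irf8 was 7.10% within 50 kb and 43.7% within 200 kb, in place of 23.4%, and 30.3% within 100 kb of either gene end. The number of cDC2 peaks was also 0 within 200 kb, and within 50 kb it had to be. With 0 knockout tags at the 2 peaks with the lowest knockout value, the exact lower limits of the fold were 3.26 and 3.36. The knockout values rest on 0.5 to 4.5 tags per peak, and the absence of cDC2 peaks on a wild-type set of 4.77 M tags. No paired analysis was possible because the tables pool the libraries of each genotype, and for the same reason no library could be left out.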
